A study of Mus musculus with 8 samples.

Results

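The Myc, Max and Mxd network is a set of basic helix-loop-helix leucine zipper transcription factors, and its RNA was compared here between fractions of mouse small intestinal epithelium sorted on CD24. The 10 members were chosen by name, with earlier results of these data known. They were found by their Ensembl identifiers among the 37620 genes of each deposited table. They comprised the activators Myc, Mycn and Mycl, the shared partner Max, the antagonists Mxd1, Mxd3, Mxd4, Mxi1 and Mnt, and the glucose-responsive factor Mlxipl, also called ChREBP. The study sequenced RNA of CD24Mid cells (also named CD24low by its authors) and of CD24Neg cells, with 4 libraries of each, in a project on hydroxymethylcytosine and intestinal differentiation. Both fractions had been depleted by flow cytometry of cells positive for CD45, a surface protein of white blood cells, and of cells that bound Ulex lectin. The labels describe the libraries as biological replicates and name no treatment, genotype, strain, age or sex. They do not say whether a library came from a single mouse or a pool, so the p-values measure the spread between these libraries. The libraries are numbered as in their titles, with 1, 3, 5 and 7 in CD24Mid and 2, 4, 6 and 8 in CD24Neg.

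Max pairs either with a Myc protein, and the pair then activates transcription from E-box DNA, or with an Mxd protein or Mnt, and the pair then recruits corepressors to the same sites. In the intestine, Myc is known as a target of Wnt signalling in the crypt, where stem cells and their dividing progeny reside, and Mxd1 is known to be expressed as cells leave the cycle and differentiate. Mlxipl pairs with Mlx, a relative of Max, and switches on genes of sugar and lipid metabolism.

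All 4 CD24Mid libraries had more RNA of Myc, Mycn, Mycl and Mxd3 than any CD24Neg library, and all 4 CD24Neg libraries had more of Mxd1, Mxi1, Max, Mxd4, Mlxipl and Mnt, although on unscaled totals Mnt turned round, Mxd4 and Mlxipl were not called, and 3 members rather than 6 were called higher in CD24Neg. Myc was 11.03-fold higher in CD24Mid and Mxd1 was 12.7-fold lower, the steepest change in each direction among the members. All 10 members passed the filter on low counts, all 10 were called at an adjusted p below 0.05 in edgeR's quasi-likelihood test, and in all 10 the groups did not overlap. These counts have to be read against a wide background. Of the 12840 genes tested, 69.8% were called, 35.5% as higher in CD24Mid and 34.3% as higher in CD24Neg. The groups did not overlap for 64.4% of the genes tested, 33% with CD24Mid higher and 31.4% with CD24Neg higher. In sorted bulk samples, fewer cells of a type and less RNA per cell cannot be told apart.

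The tables held between 15473071 and 17537818 gene-unique reads per library in CD24Mid and between 11340782 and 18928233 in CD24Neg. Levels are given in CPM, counts per 1000000 reads that hit a single gene, on library sizes normalised by the trimmed mean of M values (TMM). Mitochondrially encoded genes took 8.03% to 9.17% of the reads in CD24Mid and 27.7% to 37.0% in CD24Neg, and the TMM factors were 1.34 to 1.42 in CD24Mid and 0.697 to 0.757 in CD24Neg. The part of this gap in the members' differences was not tested beyond the other scalings. The choice of scaling therefore bears on small and moderate changes. The median over all genes (log2 fold change) was 0.02 under TMM, 0.24 under upper-quartile factors and 0.96 on unscaled totals. The log2 fold change of Mxd4, for example, was -1.01 under TMM and -0.07 on unscaled totals. Cd24a, which encodes the sorted antigen, had 155, 255, 176 and 190 CPM in CD24Mid against 24.8, 38.5, 19.2 and 31.7 CPM in CD24Neg and was higher in every CD24Mid library. Epcam, a general epithelial marker, had 1220 to 1483 CPM in CD24Mid against 1337 to 1469 CPM in CD24Neg, with overlapping groups.

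The E-box that Myc, Mxd and ChREBP complexes share has the core CACGTG, which reads the same on both strands. Promoter windows, 250 bases before to 50 bases after an annotated start, were taken from RefSeq for 9 members (all but Myc), with 12 windows in total on GRCm38.p6. The motifs were chosen after the values had been seen, and the stretches shown are those that hold a match which can be printed. CACGTG stood in 4 of the 12 members' windows, those of Max, Mnt, Mxd4 and Mlxipl, and in 7.15% of all 32851 windows. Another Mlxipl window, which begins at chr5:135106641, held no match, and counts per gene do not tell which start was used. Under TMM all 4 genes with a match were called higher in CD24Neg, as were 6 of the 9 members with a window and 34.3% of all genes tested. Mxd1 and Mxi1, the other members called higher in CD24Neg, held no CACGTG in their windows. On unscaled totals Max alone of the 4 genes with a match kept this call, Mxd4 and Mlxipl were not called, and Mnt changed direction. The stretches are given 5′ to 3′ on the strand of the gene, with CACGTG in capitals, and come from chr12:76962246-76962498 (minus strand), chr11:74830674-74830923 (plus strand), chr5:34187711-34187960 (minus strand) and chr5:135089640-135089889 (plus strand). The match in Max straddles the start itself, at position -3, and those in Mlxipl, Mnt and Mxd4 begin at -98, -123 and -219.
Max: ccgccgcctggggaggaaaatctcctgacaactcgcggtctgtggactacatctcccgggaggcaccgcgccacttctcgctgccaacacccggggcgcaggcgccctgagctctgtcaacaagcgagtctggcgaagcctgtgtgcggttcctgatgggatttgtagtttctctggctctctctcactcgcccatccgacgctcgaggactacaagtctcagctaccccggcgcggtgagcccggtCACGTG
Mnt: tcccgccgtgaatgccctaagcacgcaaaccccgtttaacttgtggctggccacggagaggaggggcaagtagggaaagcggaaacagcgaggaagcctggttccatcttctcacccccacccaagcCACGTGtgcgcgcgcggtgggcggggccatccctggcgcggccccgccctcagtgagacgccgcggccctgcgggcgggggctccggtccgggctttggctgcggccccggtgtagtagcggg
Mxd4: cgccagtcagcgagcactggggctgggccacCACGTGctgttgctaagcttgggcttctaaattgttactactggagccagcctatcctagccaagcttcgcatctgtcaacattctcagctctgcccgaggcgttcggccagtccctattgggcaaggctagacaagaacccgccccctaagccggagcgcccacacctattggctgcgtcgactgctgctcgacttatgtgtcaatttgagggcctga
Mlxipl: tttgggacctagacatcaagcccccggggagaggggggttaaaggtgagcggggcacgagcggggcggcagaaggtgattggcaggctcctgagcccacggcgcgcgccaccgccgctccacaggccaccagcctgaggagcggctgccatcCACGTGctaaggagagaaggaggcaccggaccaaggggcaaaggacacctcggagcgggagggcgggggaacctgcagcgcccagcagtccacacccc
Among the activators, the Mycn window held 2 copies of TTTGGCGC, a sequence that E2F factors of the cell cycle bind, at positions -183 and -168. TTTGGCGC or TTTCCCGC, on either strand, stood in 1.56% of all windows and in no other member's. The stretch shown for Mycn lies at chr12:12941927-12942086 on the minus strand, with both copies in capitals, and stops before the annotated transcripts that begin inside the window.
Mycn: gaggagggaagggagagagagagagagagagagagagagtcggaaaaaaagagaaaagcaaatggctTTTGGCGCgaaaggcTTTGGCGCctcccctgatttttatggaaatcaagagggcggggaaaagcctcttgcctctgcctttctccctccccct
The Mycn window also held TTCAAAG at position -14, the reverse complement of CTTTGAA, which TCF factors of the Wnt pathway bind. This motif stood in 5.14% of all windows and in no other member's. A match describes these letters only, and no binding was measured.

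Myc (ENSMUSG00000022346), the founding activator of growth and division genes, had 81.3, 83.5, 87.5 and 65.7 CPM in CD24Mid against 5.70, 8.10, 5.30 and 9.94 CPM in CD24Neg. Even the lowest CD24Mid library stood far above the highest CD24Neg library. The means were 79.5 ± 9.55 CPM in CD24Mid against 7.26 ± 2.17 CPM in CD24Neg (SD, n = 4 per group), a log2 fold change of 3.46 ± 0.20 (SE, edgeR adjusted p = 1.88e-07). The counts behind these values were 1633 to 2092 reads in CD24Mid and 45 to 90 reads in CD24Neg. Mycl (ENSMUSG00000028654), a less studied relative with the same partner, had 40.6, 57.0, 47.5 and 39.1 CPM in CD24Mid against 13.2, 14.5, 7.77 and 9.49 CPM in CD24Neg. Again no library of either group crossed into the other, and the log2 fold change was 2.05 ± 0.20 (SE, edgeR adjusted p = 5.88e-06). Mycn (ENSMUSG00000037169), best known from embryonic and neural progenitors, was the scarcest activator, also per kilobase. It had 6.98, 6.70, 6.82 and 4.18 CPM in CD24Mid against 2.28, 1.85, 1.16 and 2.32 CPM in CD24Neg. CD24Mid replicate 7 lay below the rest of its group and still above every CD24Neg library, and the log2 fold change was 1.72 ± 0.27 (SE, edgeR adjusted p = 0.000203). Mycn rested on 104 to 163 reads per library in CD24Mid and 16 to 21 in CD24Neg, so its level in CD24Neg is the least precise of the activators.

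**Figure D1:**
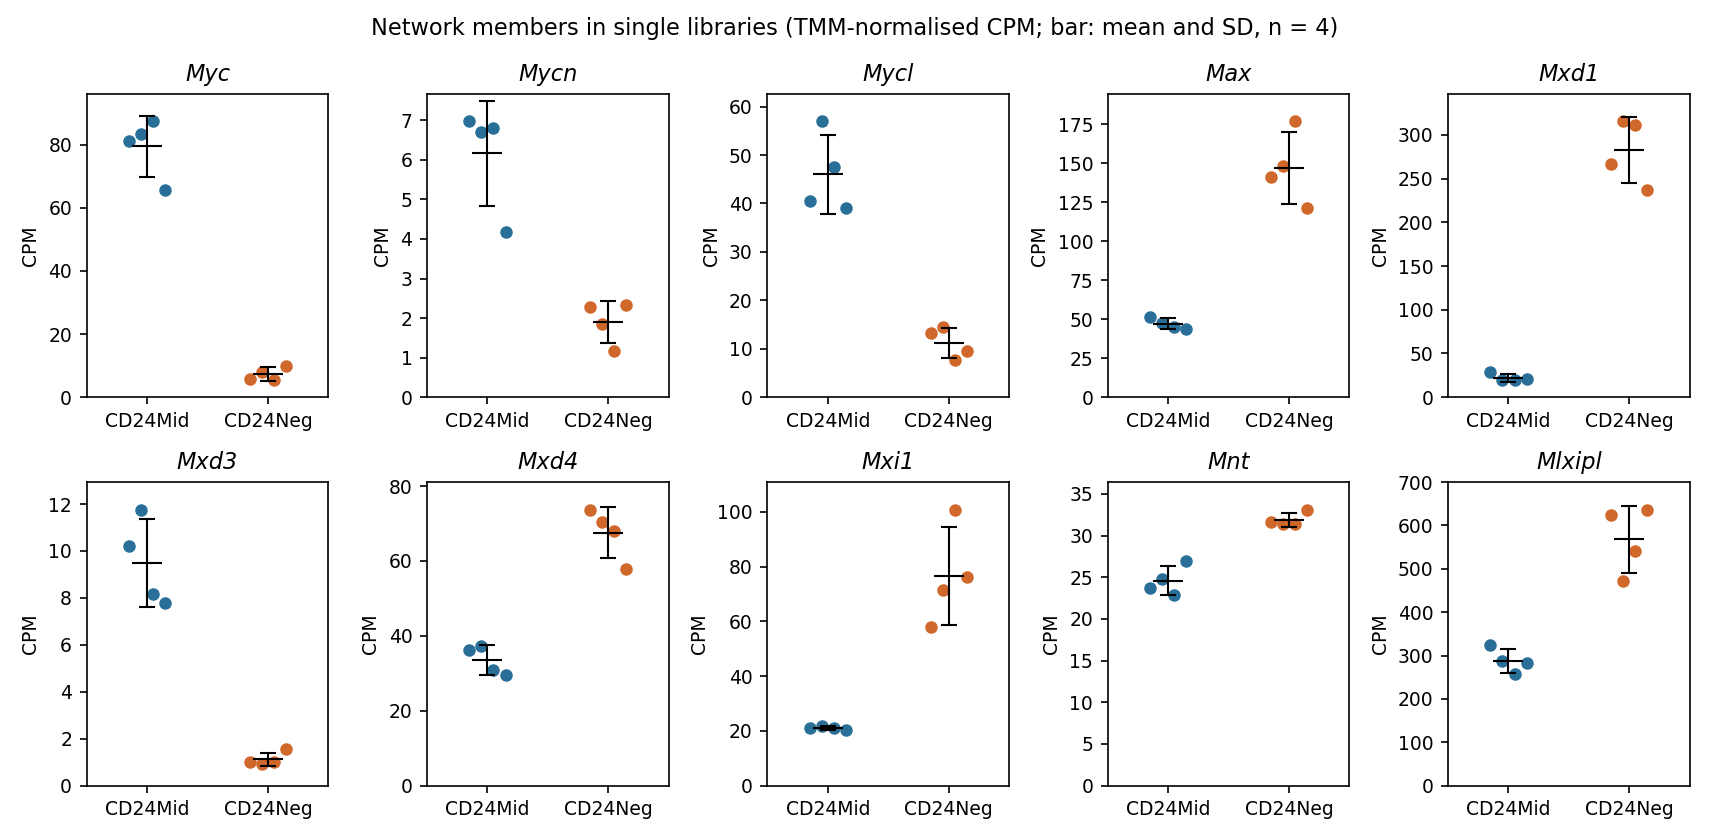
TMM-normalised CPM (vertical axes, each from 0) of the 10 members in CD24Mid (left, blue) and CD24Neg (right, orange); each point is a library, and the bars give the mean and SD of 4 libraries. Myc, Mycn, Mycl and Mxd3 sit higher in CD24Mid and the other members higher in CD24Neg, with no overlap in any panel; the narrowest separation is that of Mnt.

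Max (ENSMUSG00000059436), the partner that both arms need, had 51.6, 47.5, 45.01 and 43.8 CPM in CD24Mid against 141, 148, 177 and 121 CPM in CD24Neg. The CD24Mid libraries lay close together and every CD24Neg library stood well above them. The means were 47.0 ± 3.46 CPM in CD24Mid against 147 ± 23.0 CPM in CD24Neg (SD, n = 4 per group), and Max was 3.13-fold lower in CD24Mid, at a log2 fold change of -1.65 ± 0.13 (SE, edgeR adjusted p = 9.95e-07). Max thus did not move with the Myc genes in these fractions but with most of the antagonists.

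Mxd1 (ENSMUSG00000001156), formerly Mad1, had 29.1, 19.5, 19.4 and 20.9 CPM in CD24Mid against 267, 316, 311 and 237 CPM in CD24Neg. CD24Mid replicate 1 was the highest of its group, and all 4 were far below CD24Neg. The means were 22.2 ± 4.62 CPM in CD24Mid against 283 ± 37.6 CPM in CD24Neg (SD, n = 4 per group), a log2 fold change of -3.67 ± 0.17 (SE, edgeR adjusted p = 1.09e-07). Mxi1 (ENSMUSG00000025025), also called Mxd2, had 21.1, 21.7, 21.1 and 20.3 CPM in CD24Mid against 58.0, 71.5, 101 and 76.3 CPM in CD24Neg. It hardly varied among CD24Mid libraries and spread widely among CD24Neg libraries, with a log2 fold change of -1.87 ± 0.15 (SE, edgeR adjusted p = 1.54e-06). Mxd4 (ENSMUSG00000037235) had 36.4, 37.4, 30.9 and 29.5 CPM in CD24Mid against 73.7, 70.4, 68.0 and 58.0 CPM in CD24Neg. Its log2 fold change was -1.01 ± 0.12 (SE, edgeR adjusted p = 1.88e-05), which missed the threshold without scaling for composition (-0.07 on unscaled totals, edgeR adjusted p = 0.574).

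Mxd3 (ENSMUSG00000021485), the antagonist known from cultured and embryonic cells to be expressed in S phase rather than in differentiated cells, went the other way. It had 10.2, 11.8, 8.16 and 7.80 CPM in CD24Mid against 1.01, 0.926, 1.02 and 1.55 CPM in CD24Neg. All CD24Mid libraries were above all CD24Neg libraries, and the log2 fold change was 3.07 ± 0.24 (SE, edgeR adjusted p = 1.09e-06). The CD24Neg values rested on 8, 8, 14 and 14 reads, against 194 to 253 reads per library in CD24Mid. Mxd3 shares 105 of its 2369 annotated exon bases with Prelid1 on the opposite strand, a gene with 21707 reads over the CD24Mid libraries and 16351 over the CD24Neg libraries. Whether the counting used strand is not given in the sources used here, and reads from the shared stretch cannot be assigned by strand. Mxd4 shares 514 of 8483 exon bases, and Mlxipl 235 of 5538, with annotated antisense genes that were not analysed here.

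Mnt (ENSMUSG00000000282), the antagonist found in most cell types whether or not they divide, changed least. It had 23.7, 24.8, 22.9 and 27.0 CPM in CD24Mid against 31.7, 31.4, 31.4 and 33.1 CPM in CD24Neg. The groups were close and just did not overlap, with a log2 fold change of -0.38 ± 0.10 (SE, edgeR adjusted p = 0.00462). This direction rests on the scaling. Under upper-quartile factors Mnt had a log2 fold change of -0.15 (edgeR adjusted p = 0.185), and on unscaled totals it was called higher in CD24Mid, at 0.57 (edgeR adjusted p = 0.000298).

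Mlxipl (ENSMUSG00000005373) was the most abundant member, also per kilobase, with 324, 287, 256 and 284 CPM in CD24Mid against 623, 471, 542 and 636 CPM in CD24Neg. Every CD24Neg library exceeded every CD24Mid library, and the log2 fold change was -0.98 ± 0.13 (SE, edgeR adjusted p = 6.33e-05). On unscaled totals the difference was -0.04 (edgeR adjusted p = 0.766). Its partner Mlx averaged 50.2 ± 5.77 CPM in CD24Mid against 111 ± 12.2 CPM in CD24Neg (SD, n = 4 per group), with a log2 fold change of -1.14 ± 0.12 (SE, edgeR adjusted p = 8.30e-06), a call also lost on unscaled totals (edgeR adjusted p = 0.102). Within libraries, the log2 ratio of Mlxipl to Mlx per kilobase was 1.73 ± 0.11 in CD24Mid and 1.67 ± 0.17 in CD24Neg (SD, n = 4 per group), and the groups overlapped.

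**Figure D2:**
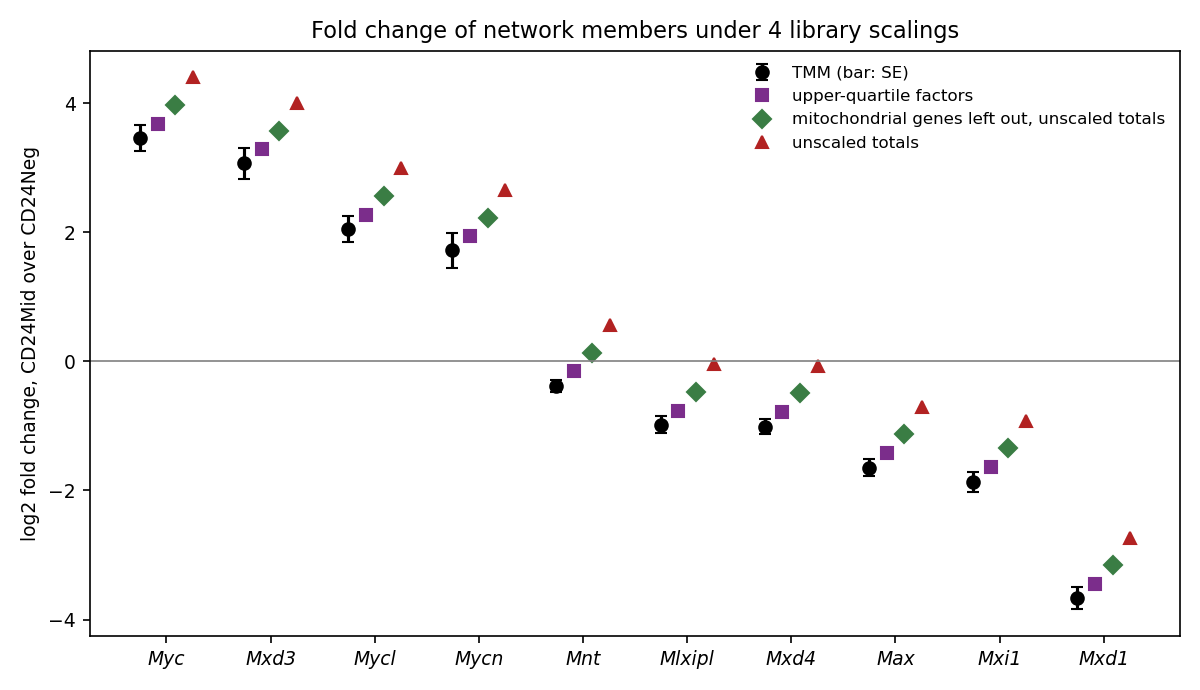
Log2 fold change of CD24Mid over CD24Neg (vertical axis) for each member under TMM, with its SE, and under 3 other library scalings. Members keep their order from Myc at the top to Mxd1 at the bottom while all values shift upwards together, and Mnt moves from -0.38 under TMM to 0.57 on unscaled totals.

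Under all 4 scalings in the plot of fold changes, 7 members (Myc, Mycn, Mycl, Mxd3, Max, Mxd1 and Mxi1) kept their direction and their call. On unscaled totals 5 members were called higher in CD24Mid, now with Mnt, and 3 higher in CD24Neg, beside 69.8% and 12.9% of all genes tested. In either direction 82.7% of all genes were called there. Under upper-quartile factors the counts were 4 and 5 members, beside 43.6% and 27.3% of all genes (70.9% in either direction). With mitochondrial genes left out and totals unscaled they were also 4 and 5, beside 54.6% and 20.1% (74.7% in either direction). In limma on the deposited estimates they were 5 and 3, beside 67.8% and 13% (80.8% in either direction).

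Ratios between members of the same library do not depend on how libraries are scaled. Each gene's reads were divided by its effective length in that library, and the ratios are descriptions without a test. The summed activators over the summed antagonists had a log2 ratio of 0.90, 1.06, 1.16 and 0.90 in CD24Mid and of -3.67, -3.47, -4.18 and -3.23 in CD24Neg. Per kilobase, the activators were in excess in every CD24Mid library and the antagonists in every CD24Neg library. In reads not divided by length, the activator excess in CD24Mid was smaller. It was smallest, near parity, in CD24Mid replicate 7. There Myc, Mycn and Mycl had 1633, 104 and 973 reads. Mxd1, Mxd3, Mxd4, Mxi1 and Mnt had 519, 194, 734, 505 and 670 reads in that library. The size of the excess in CD24Mid therefore rests in part on the length division. The mean log2 ratio was 1.004 ± 0.13 in CD24Mid and -3.64 ± 0.40 in CD24Neg (SD, n = 4 per group), which as a geometric mean is an activator level per kilobase of 2.01 times the antagonist level in CD24Mid and 0.0803 times in CD24Neg. Of the 10 ratios computed, Myc over Mxd1 differed most between the fractions, as follows from pairing the members with the steepest change in each direction. Its log2 ratio was 3.27 ± 0.29 in CD24Mid and -4.05 ± 0.72 in CD24Neg (SD, n = 4 per group). That is a 9.65-fold excess of Myc in CD24Mid and a 16.5-fold excess of Mxd1 in CD24Neg.

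Set against Max, the arms behaved differently. The summed activators over Max had a log2 ratio of 1.33 ± 0.13 in CD24Mid and -3.25 ± 0.50 in CD24Neg (SD, n = 4 per group). The summed antagonists over Max had a log2 ratio of 0.32 ± 0.06 in CD24Mid and 0.39 ± 0.10 in CD24Neg (SD, n = 4 per group). The groups overlapped in this ratio, and antagonist RNA in total stood, as a geometric mean, at 1.25 times Max in CD24Mid and 1.31 times Max in CD24Neg. Mxd1 alone over Max had a log2 ratio of -2.40 ± 0.21 in CD24Mid and -0.36 ± 0.11 in CD24Neg, and Mnt over Max had -2.21 ± 0.17 in CD24Mid and -3.47 ± 0.26 in CD24Neg (SD, n = 4 per group). The total relative to Max was thus made up by different antagonists in the fractions.

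In CD24Mid the antagonist reads per kilobase were spread over all 5 genes. Mxd4 held 29.5% ± 0.578, Mxd3 24.5% ± 2.95, Mnt 17.3% ± 2.16, Mxd1 15.3% ± 2.51 and Mxi1 13.4% ± 1.003 (SD, n = 4). In CD24Neg, Mxd1 alone held 59.7% ± 2.44, followed by Mxd4 with 17.8% ± 2.03, Mxi1 with 14.6% ± 2.79, Mnt with 6.93% ± 0.893 and Mxd3 with 0.920% ± 0.298 (SD, n = 4). Mxi1 was the antagonist whose share differed least. Among the activators, Myc held 72.9% ± 2.08 in CD24Mid and 45.8% ± 10.9 in CD24Neg, and Mycl held 23.2% ± 2.28 in CD24Mid and 45.3% ± 10.8 in CD24Neg (SD, n = 4 per group). The effective length of Myc was 1447 to 1843 bases in CD24Neg, and that of Mycl was 1918 bases in CD24Neg replicate 6 and 2760 to 2810 bases in the others of its group, which moves these shares.

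**Figure D3:**
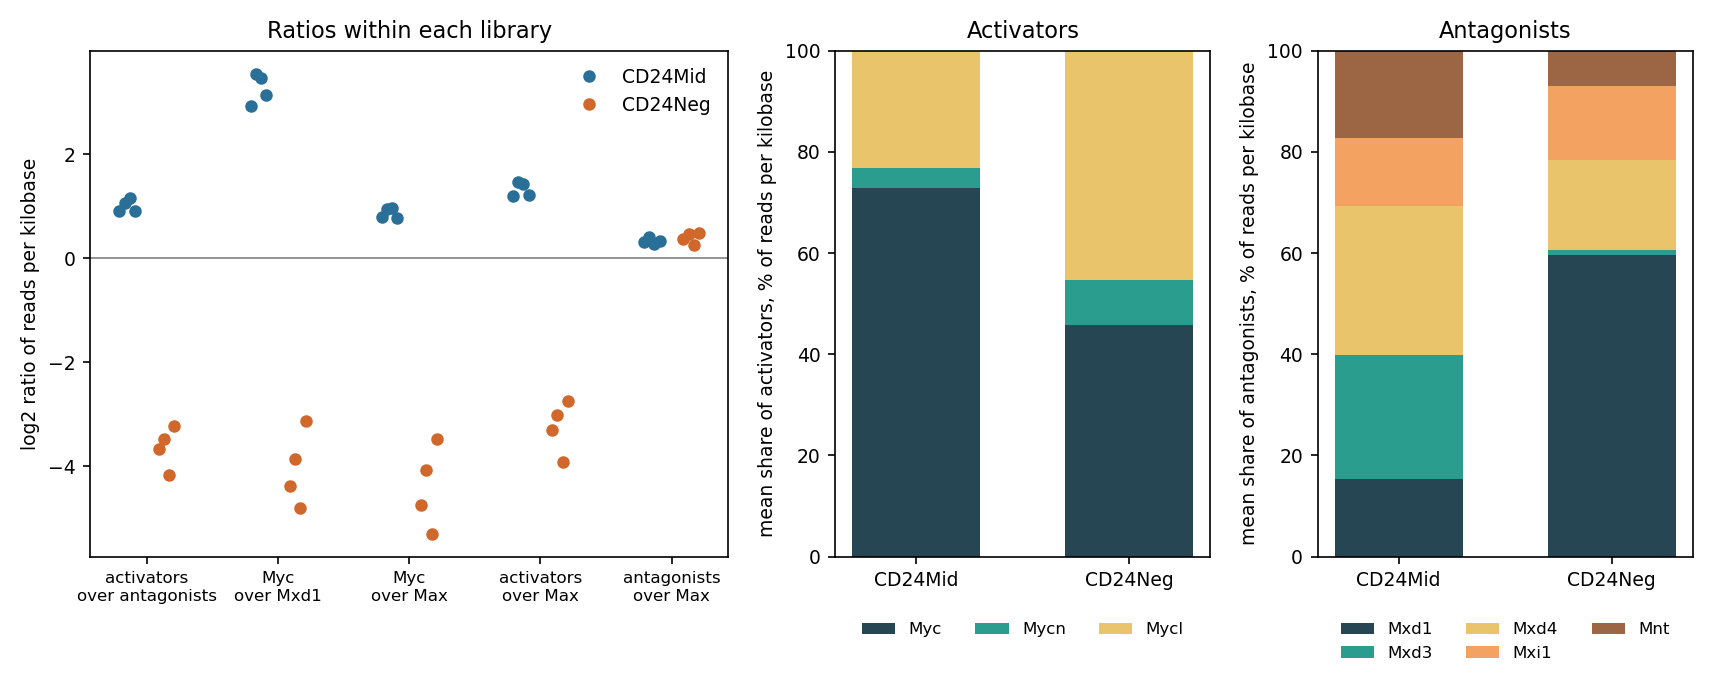
Left, log2 ratios of reads per kilobase within each library, a point per library, for CD24Mid (blue) and CD24Neg (orange); middle and right, stacked bars of the mean share of each gene in the summed activator and antagonist reads per kilobase (%). The activator ratios lie on opposite sides of 0 in the fractions, antagonists over Max overlap, and Mxd1 takes 15.3% of the antagonist bar in CD24Mid and 59.7% in CD24Neg.

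Per kilobase of effective length, the order of the members also differed between the fractions. In CD24Mid, Mlxipl came first at 132 ± 18.5 CPM per kilobase, then Myc at 54.8 ± 5.04, Max at 30.0 ± 2.32 and Mycl at 17.5 ± 2.94 (SD, n = 4). Below them, Mxd4 at 11.05 ± 1.05 overlapped with Mxd3 at 9.24 ± 1.83 CPM per kilobase (SD, n = 4). Mnt at 6.45 ± 0.455 overlapped with Mxd1 at 5.75 ± 1.22, which overlapped with Mxi1 at 5.01 ± 0.144, and Mycn came last at 2.96 ± 0.584 CPM per kilobase (SD, n = 4). In CD24Neg, Mlxipl again came first at 257 ± 35.4 CPM per kilobase, and Max at 93.2 ± 15.2 overlapped with Mxd1 at 72.6 ± 9.65 (SD, n = 4). Mxd4 at 21.5 ± 2.43 overlapped with Mxi1 at 17.8 ± 4.23, and Mnt followed at 8.33 ± 0.215 CPM per kilobase (SD, n = 4). Myc at 4.64 ± 1.87 overlapped with Mycl at 4.34 ± 0.750, and Mxd3 at 1.09 ± 0.240 overlapped with Mycn at 0.875 ± 0.246 CPM per kilobase (SD, n = 4). Myc thus stood above all 5 antagonists in CD24Mid and below 4 of them in CD24Neg.

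Genes that work with the network were followed as lists, which were chosen with earlier results of these data known. Their counts therefore describe the lists and are no independent support. The counts are to be read beside the 35.5% of all genes called higher in CD24Mid and the 34.3% called higher in CD24Neg under TMM. On unscaled totals these shares were 69.8% and 12.9%. Of the partners of MAX and MLX beyond the members, Mlxip, also called MondoA, averaged 178 ± 12.8 CPM in CD24Mid against 73.8 ± 3.33 CPM in CD24Neg (SD, n = 4 per group; log2 fold change 1.27 ± 0.10 with its SE, edgeR adjusted p = 9.17e-07). Mlxip was thus higher in CD24Mid, and its relative Mlxipl was higher in CD24Neg under TMM. Mga, a large repressor that binds Max, averaged 46.7 ± 15.8 CPM in CD24Mid against 29.2 ± 8.87 CPM in CD24Neg (SD, n = 4 per group; edgeR adjusted p = 0.0437). It missed the threshold when CD24Mid replicate 5 (edgeR adjusted p = 0.130) or 7 (0.107) was left out, and likewise without CD24Neg replicate 2 (0.100), 4 (0.0779) or 8 (0.0935).

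Of 15 genes for cofactors of Myc and for its stability, 10 were called higher in CD24Mid, 1 higher in CD24Neg and 4 were not called (35.5% and 34.3% of all genes were called in these directions), with a median log2 fold change of 0.54 beside 0.02 for all genes. Aurka, a mitotic kinase that stabilises N-Myc, averaged 56.1 CPM in CD24Mid against 7.77 CPM in CD24Neg (n = 4 per group; log2 fold change 2.85 ± 0.16 with its SE, edgeR adjusted p = 1.93e-07). Ruvbl1, an ATPase of chromatin complexes that Myc recruits, averaged 37.6 ± 2.46 CPM in CD24Mid against 8.31 ± 1.09 CPM in CD24Neg (SD, n = 4 per group; edgeR adjusted p = 1.91e-07). Zbtb17, also called Miz1, through which Myc represses genes, was the 1 called higher in CD24Neg, with 28.1 ± 2.84 CPM in CD24Mid against 44.9 ± 6.93 CPM in CD24Neg (SD, n = 4 per group; edgeR adjusted p = 0.000768). Its direction turned on unscaled totals, where 15 genes of the list were called higher in CD24Mid and 0 higher in CD24Neg, beside 69.8% and 12.9% of all genes.

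Of 11 corepressor genes that serve Mxd proteins and Mnt, 6 were called higher in CD24Mid, 2 higher in CD24Neg and 3 were not called, a share called near the 69.8% of all genes, with a median log2 fold change of 0.41. The histone-binding subunit Rbbp7 averaged 215 ± 21.7 CPM in CD24Mid against 62.9 ± 5.75 CPM in CD24Neg, and the deacetylase Hdac2 averaged 88.6 ± 8.13 CPM in CD24Mid against 30.6 ± 2.71 CPM in CD24Neg (SD, n = 4 per group). Their log2 fold changes were 1.78 and 1.54 (edgeR adjusted p = 3.42e-07 and 5.83e-07). The scaffold Sin3b averaged 45.4 ± 5.69 CPM in CD24Mid against 70.4 ± 6.53 CPM in CD24Neg, and Ncor1, a corepressor also used by nuclear receptors, averaged 241 ± 42.4 CPM in CD24Mid against 409 ± 98.7 CPM in CD24Neg (SD, n = 4 per group; edgeR adjusted p = 0.000563 and 0.00345). Both directions turned on unscaled totals, where 10 genes of the list were called higher in CD24Mid and 0 higher in CD24Neg, beside 69.8% and 12.9% of all genes.

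Of 32 genes listed as activated by Myc, 28 were called higher in CD24Mid and 4 higher in CD24Neg, beside 35.5% and 34.3% of all genes, with a median log2 fold change of 1.95 beside 0.02 for all genes. Ppat, the first enzyme of purine synthesis, averaged 26.4 ± 3.53 CPM in CD24Mid against 2.21 ± 1.11 CPM in CD24Neg (SD, n = 4 per group; log2 fold change 3.61 ± 0.27 with its SE, edgeR adjusted p = 8.25e-07). Cad, which starts pyrimidine synthesis, averaged 89.5 ± 7.98 CPM in CD24Mid against 12.5 ± 4.52 CPM in CD24Neg (SD, n = 4 per group; log2 fold change 2.85 ± 0.22 with its SE, edgeR adjusted p = 1.09e-06). The 4 genes higher in CD24Neg were the glycolytic Eno1, Pkm and Ldha and the cell cycle phosphatase Cdc25a. Ldha and Cdc25a are named after their values were seen. Their log2 fold changes were -0.88 ± 0.15 and -0.29 ± 0.10 (SE, edgeR adjusted p = 0.000368 and 0.0186). Eno1 averaged 144 ± 26.0 CPM in CD24Mid against 396 ± 38.6 CPM in CD24Neg (SD, n = 4 per group; log2 fold change -1.46 ± 0.15 with its SE, edgeR adjusted p = 6.70e-06). Pkm averaged 645 ± 140 CPM in CD24Mid against 1401 ± 180 CPM in CD24Neg (SD, n = 4 per group; log2 fold change -1.12 ± 0.18 with its SE, edgeR adjusted p = 0.000203). Pkm missed the threshold on unscaled totals, at -0.18 (edgeR adjusted p = 0.308). On unscaled totals 29 of the 32 genes were called higher in CD24Mid and 1 higher in CD24Neg, beside 69.8% and 12.9% of all genes. Not all 4 genes thus kept their direction there, and Ldha and Cdc25a were not followed singly over the settings. Under upper-quartile factors 3 genes were called higher in CD24Neg, beside 27.3% of all genes. With single libraries left out the count was 3 to 4. Reads shared with near-identical copies are left out of the unique counts, and with estimated counts, which assign such reads, Eno1 had a log2 fold change of -1.47 and Pkm of -1.11.

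Of 10 genes listed as repressed by Myc, 2 were called higher in CD24Mid, 6 higher in CD24Neg and 2 were not called, beside 35.5% and 34.3% of all genes called in these directions, with a median log2 fold change of -0.77. Cdkn2b and Cdkn1a encode inhibitors of cyclin-dependent kinases that Myc represses through Miz1. Cdkn2b averaged 23.5 ± 9.00 CPM in CD24Mid against 121 ± 16.6 CPM in CD24Neg, and Cdkn1a averaged 39.2 ± 6.43 CPM in CD24Mid against 184 ± 12.4 CPM in CD24Neg (SD, n = 4 per group). Their log2 fold changes were -2.37 and -2.23 (edgeR adjusted p = 6.43e-06 and 2.27e-07). The Notch target Hes1 averaged 88.2 ± 9.11 CPM in CD24Mid against 32.4 ± 5.57 CPM in CD24Neg, and Cdkn1b, another such inhibitor, averaged 70.2 ± 6.74 CPM in CD24Mid against 52.7 ± 6.60 CPM in CD24Neg (SD, n = 4 per group; edgeR adjusted p = 3.75e-06 and 0.0097). The listed inhibitors therefore did not all move the same way. On unscaled totals 4 genes of the list were called higher in CD24Mid and 3 higher in CD24Neg, beside 69.8% and 12.9% of all genes.

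Of 15 genes listed as ChREBP targets, 14 were tested, since Fgf21 had no read in any library. Of these, 3 were called higher in CD24Mid, 10 higher in CD24Neg and 1 was not called, beside 35.5% and 34.3% of all genes called in these directions, with a median log2 fold change of -2.08. Slc2a2, the glucose and fructose transporter GLUT2, averaged 8.26 ± 3.56 CPM in CD24Mid against 338 ± 111 CPM in CD24Neg (SD, n = 4 per group; log2 fold change -5.36 ± 0.34 with its SE, edgeR adjusted p = 3.26e-07). G6pc, glucose-6-phosphatase, averaged 3.69 ± 1.79 CPM in CD24Mid against 142 ± 45.04 CPM in CD24Neg (SD, n = 4 per group; log2 fold change -5.28 ± 0.34 with its SE, edgeR adjusted p = 3.43e-07). The 3 genes higher in CD24Mid were Fasn, Acaca and Acly, enzymes of fatty acid synthesis, of which Acly is named after its values were seen. Fasn averaged 204 ± 17.2 CPM in CD24Mid against 71.4 ± 16.1 CPM in CD24Neg, and Acaca averaged 59.2 ± 6.20 CPM in CD24Mid against 27.9 ± 6.14 CPM in CD24Neg (SD, n = 4 per group; edgeR adjusted p = 1.25e-05 and 0.000101). On unscaled totals 5 genes of the list were called higher in CD24Mid and 9 higher in CD24Neg, beside 69.8% and 12.9% of all genes.

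Across the lists, CACGTG stood in the promoter windows of 4 of 13 ChREBP targets with a window (30.8%), 7 of 26 Myc-activated genes (26.9%), 2 of 14 cofactor genes (14.3%), 1 of 7 Myc-repressed genes (14.3%), 1 of 8 corepressor genes (12.5%) and 1 of 3 partners of MAX and MLX. Of all 27025 genes with a window, 8.09% held it. The shares of the cofactor, Myc-repressed, corepressor and partner lists rest on 1 or 2 genes each.

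**Figure D4:**
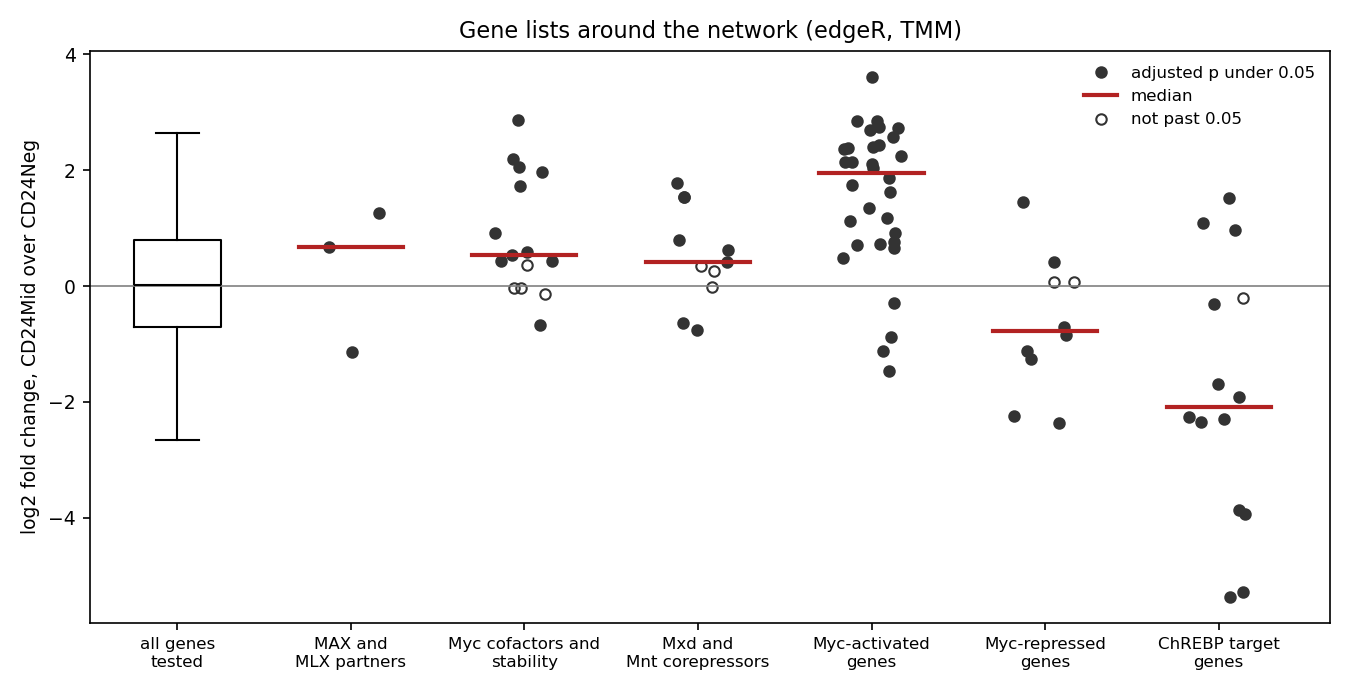
Log2 fold change of CD24Mid over CD24Neg (vertical axis, edgeR, TMM) of each tested gene in the 6 lists, with filled points for an adjusted p below 0.05, open points for the rest and a red line at the list median. The box gives all genes tested (median, quartiles, and whiskers at percentiles 5 and 95); the median is 1.95 for Myc-activated genes and -2.08 for ChREBP targets, beside 0.02 for all genes.

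The fractions also differed in markers of cell types, beside the same 35.5% and 34.3% of all genes called higher in CD24Mid and in CD24Neg. Of the stem cell markers 4 of 4 were called higher in CD24Mid, with summed levels of 2936 to 3885 CPM in CD24Mid against 89.8 to 319 CPM in CD24Neg. Of the markers of dividing cells 4 of 4 were called higher in CD24Mid, with 910 to 1520 CPM in CD24Mid against 60.5 to 228 CPM in CD24Neg. Of the enterocyte markers 5 of 5 were called higher in CD24Neg, with 586 to 1084 CPM in CD24Mid against 17014 to 29117 CPM in CD24Neg. These lists moved with the Myc genes and Mxd3 on one side and with Mxd1, Mxi1 and Max on the other, and their part in the members' differences was not tested. Of 5 goblet cell markers 4 were called higher in CD24Neg (2880 to 4251 CPM summed in CD24Mid and 9325 to 26155 CPM in CD24Neg), and of 5 enteroendocrine markers 4 were called higher in CD24Mid (241 to 538 CPM in CD24Mid against 63.0 to 90.3 CPM in CD24Neg).

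White blood cell markers were present despite the CD45 depletion. The 5 T and NK cell markers were all called higher in CD24Neg, with sums of 3.26 to 11.2 CPM in CD24Mid and of 481, 26.4, 73.2 and 341 CPM in CD24Neg. Of 4 tested B and plasma cell markers 3 were called higher in CD24Mid, with sums of 899, 850, 390 and 1003 CPM in CD24Mid against 21.8 to 53.4 CPM in CD24Neg. The part of either cell type in the members' differences was not tested. Of 4 Paneth cell markers 1 was called higher in CD24Mid and 0 in CD24Neg, and of 4 myeloid markers 2 were called higher in CD24Mid and 0 in CD24Neg. Summed levels were at most 7.02 CPM in CD24Mid against 5.85 CPM in CD24Neg for the tuft cell markers, and at most 11.9 CPM in CD24Mid against 10.5 CPM in CD24Neg for stroma and endothelium. Of the erythroid markers found, none was tested, and Hba-a1 had no read.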

How the data were processed

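Total RNA of flow-sorted epithelial cells was made into TruSeq libraries, per the labels' protocols. Alignment used Bowtie 0.12.8 and the mouse build was NCBIM37, according to the submitters' processing notes. The file headers and names are those of MMSEQ, but its version, annotation release, strand setting and filters are not given in the sources. The deposited tables give a whole-number count of reads unique to each gene, without normalisation. The authors also deposited an expression estimate, read here as a natural log value (ln) because the log of the unique counts had slopes of 0.965 to 0.981 on it, and an effective length in bases.

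Gene names were matched for 32897 of 37620 IDs from tables of build GRCm38, which was used for names, exon overlaps and RefSeq promoters only. The test on the unique counts was that of edgeR 4.0.16, run in R 4.3.3 (filterByExpr, TMM, robust quasi-likelihood F test, group as the only term), with Benjamini-Hochberg adjustment over the 12840 genes tested and a threshold of 0.05. Standard errors (SE) of log2 fold changes were obtained as the fold change over the square root of F. Each of the 4 CD24Mid libraries held 15473071 to 17537818 gene-unique reads and each of the 4 CD24Neg libraries 11340782 to 18928233, so a member with about 10 reads in a library is known only roughly. Libraries of a group differed by more than sampling noise (chi-square per degree of freedom of at least 11.6). Ratios used reads per kilobase of effective length within a library. The test was also tried on simulated counts, with means and dispersions taken from the fit to these data. Few genes were changed there and no TMM factors were imposed, so the trial does not cover the composition difference between these fractions.

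The members and lists were chosen with earlier results of these data known. Named genes are all members, every gene of the short partner list, and, in each longer list, the 2 called genes with the largest log2 fold change in each direction among those averaging at least 5 CPM in a group. For Myc and Mxd1, the 3 genes with the most similar levels are also named. Alternatives were other scalings, other filters, mitochondrial genes left out, DESeq2 1.42.0, estimated counts (rounded to whole numbers), limma 3.58.1 on the deposited ln estimates, and each library left out in turn.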

Additional observations from a re-analysis of the deposited data

Results flagged for a closer look

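Within groups of 4 libraries, a library was picked out when its gap to the nearest other, divided by the group's range, exceeded Dixon's critical value for 4 samples. This happened in 7 of 84 groups of values examined, and chance gives about 1 in 20. In CD24Mid, Mycn was lowest in replicate 7 at 4.18 CPM (0.898 of the range) and Mxd1 highest in replicate 1 at 29.1 CPM (0.852). The log2 ratio of Myc over Mnt was lowest in CD24Mid replicate 7, at 2.75 (0.922). Also in CD24Mid, Mlx was highest in replicate 1 at 58.8 CPM (0.839), Aurka in replicate 3 at 61.0 CPM (0.925) and Slc2a2 in replicate 1 at 13.6 CPM (0.892). In CD24Neg, Mxd3 was highest in replicate 8 at 1.55 CPM (0.853). Each of these libraries stayed on its own group's side of the other group's values.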

How the results depend on the processing

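No paired analysis was possible because the CD24Mid and CD24Neg titles share no replicate number, and whether consecutive numbers came from the same animals is not given in the labels. Over all alternatives run, Myc ranged from 3.37 to 4.52 in log2 fold change, Mycn from 1.57 to 2.70, Mycl from 1.94 to 2.99, Mxd3 from 2.95 to 4.01, Max from -1.69 to -0.71, Mxi1 from -1.94 to -0.89 and Mxd1 from -3.83 to -2.74, with every call kept. Mnt, Mxd4 and Mlxipl depend on the scaling, which moves the median of all genes by 0.22 under upper-quartile factors, 0.94 on unscaled totals, 0.51 on unscaled totals without mitochondrial genes and 0.91 in limma on the deposited estimates, which has no TMM step. Without the filter the median also moved by 0.22, but over 21402 genes rather than 12840. Mnt had a log2 fold change of -0.15 under upper-quartile factors, 0.57 on unscaled totals, 0.14 on unscaled totals without mitochondrial genes, -0.27 without the filter and 0.54 in limma (adjusted p 0.000298 to 0.253 over its alternatives). Mxd4 had -0.0703 on unscaled totals and -0.0481 in limma (adjusted p up to 0.711), and Mlxipl -0.0367 and -0.0638 (adjusted p up to 0.766). On unscaled totals and in limma, 3 members rather than 6 were called higher in CD24Neg. Leaving out single libraries kept all 10 members' calls, with adjusted p of at most 0.0251.

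Genes called higher in CD24Mid numbered 8959 on unscaled totals, 7049 on unscaled totals without mitochondrial genes and 8545 in limma, against 4557 under TMM, and genes higher in CD24Neg numbered 1659, 2592 and 1634, against 4410. Lists moved likewise in the same order of settings. Genes higher in CD24Neg came to 0, 0 and 0 for Myc cofactors (1 under TMM), 0, 0 and 0 for corepressors (2) and 3, 3 and 2 for Myc-repressed genes (6), while Myc-repressed genes higher in CD24Mid came to 4, 4 and 4 (2). On unscaled totals and in limma alike, 10 corepressors and 5 ChREBP targets were called higher in CD24Mid (6 and 3 under TMM), and 1 Myc-activated gene and 0 partners of MAX or MLX higher in CD24Neg (4 and 1). Partners called higher in CD24Mid fell to 1 under RLE factors, without the filter and with estimated counts, and were 1 to 2 with single libraries left out, against 2, because the call of Mga was lost. Of the list genes named by the stated rule, Zbtb17, Ncor1 and Sin3b turned direction. They moved to 0.27, 0.18 and 0.31 on unscaled totals and to 0.21, 0.14 and 0.34 in limma. The remaining list genes were not followed singly. The rise in ChREBP targets called higher in CD24Mid means that some of them turned as well.

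The log2 ratio of activators over antagonists differed between CD24Mid and CD24Neg by 4.64, by 5.34 with Myc alone over the antagonists, and by 4.46 to 4.78 with single libraries left out. With mean effective lengths over the 8 libraries, a setting chosen after seeing the data, it was 4.597. Mxd3 with 8 to 14 reads and Mycn with 16 to 21 reads in a CD24Neg library are the members that depth limits most.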

Other observations

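Over the 8 libraries, the genes whose log2 CPM was most alike to that of Myc were Knstrn (Pearson r 0.999), a spindle protein gene, Fam83d (0.999), which acts in mitosis, and Smoc2 (0.998), a stem cell marker of the crypt. Knstrn averaged 70.8 ± 5.56 CPM in CD24Mid against 9.94 ± 2.24 CPM in CD24Neg, and Smoc2 averaged 184 ± 14.1 CPM in CD24Mid against 14.7 ± 4.26 CPM in CD24Neg (SD, n = 4 per group). Fam83d averaged 23.9 ± 1.103 CPM in CD24Mid against 3.81 ± 1.04 CPM in CD24Neg (SD, n = 4 per group). An r of at least 0.99 with Myc was reached by 262 genes.

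The genes most alike to Mxd1 were Rhoc, a small GTPase, Gpt, an alanine aminotransferase, and Abcg2, an efflux transporter of the apical membrane, each with a Pearson r of at least 0.999, and 508 genes reached 0.99. Rhoc averaged 6.61 ± 1.98 CPM in CD24Mid against 127 ± 23.3 CPM in CD24Neg, Gpt 12.7 ± 2.75 CPM in CD24Mid against 314 ± 34.8 CPM in CD24Neg, and Abcg2 57.3 ± 6.76 CPM in CD24Mid against 188 ± 10.5 CPM in CD24Neg (SD, n = 4 per group). Abcg2 differed far less between the fractions than Mxd1. These correlations are descriptions over 8 libraries that share their groups and depths.

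The log2 ratio of Mxd3 over Mxd1 per kilobase was 0.69 ± 0.35 in CD24Mid and -6.07 ± 0.48 in CD24Neg (SD, n = 4 per group), and Mxd3 exceeded Mxd1 in all 4 CD24Mid libraries (0.40 to 1.19) and in no CD24Neg library.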
